A study of Oryctolagus cuniculus with 4 samples.

Results

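The ligamentum flavum of rabbits at lumbar levels that had been fused was compared with the ligamentum flavum of the same levels, L2/3 and L4/5, labelled as control. The comparison rests on 2 of the 4 arrays of the series, chosen by their titles, 1 array a side. Per the labels, male rabbits were operated on at 18 weeks of age. The supraspinal muscle of L3/4 was removed, and instrumented posterolateral fusion was done at its neighbours L2/3 and L4/5. The ligaments were taken 16 weeks after surgery, at an age of 34 weeks. The fused group is the ligament of L2/3 and L4/5 of such a spine. The control group is ligament of the same levels; the labels print the same surgery for every sample, and whether the control animals had it is not settled by the sources used here. Whether the ligaments of L2/3 and L4/5, or of several animals, were pooled into 1 sample is not given either. The other arrays, used here only to set the values in context, are the control of L3/4 and the free level L3/4 between the fusions, where stress is concentrated (the ISC level). Fusion and the surgery it needs coincide in the fused group and cannot be told apart.

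The ligamentum flavum is a yellow ligament that spans neighbouring vertebral arches at the back of the spinal canal. It is rich in elastic fibres embedded in collagen and proteoglycans, and its cells are fibroblast-like, sparse and little supplied with vessels. The ligament is stretched when the spine bends, so a fusion takes this movement away. It borders on deep back muscle, epidural fat and the bone and marrow of the vertebral arch. Neutrophils store antimicrobial peptides in granules whose transcripts are made in the marrow, fast muscle fibres carry their own isoforms of the contractile proteins, and adipocytes express lipid storage genes. Such transcripts are known from the tissues that lie next to the ligament. Whether any of that tissue was part of the samples was not tested.

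Signals below are multiples of the 75th percentile of all probes on the same array, and a log2 ratio is the difference of 2 such values on the log2 scale. With 1 array a side there is no replicate, so no ratio has a p-value or an error between animals, and precision is limited by the array number. The scanner software's own error for each spot, carried through to a log2 ratio, had a median of 0.21 and a 95th percentile of 0.35, which covers the measurement of spots and nothing else. Of the probes, 65.0% were well above background (the scanner software's mark for a spot clearly over its background) at the fused levels and 61.1% in the control. A feature is a gene with a symbol or, without one, a transcript accession or probe name. A feature counts as measured when well above background on both arrays, and "above background" below always means that mark. Of 1489 genes that could be named, 958 were measured, 91 were above background on the fused array only, 67 in the control only and 373 on neither. A difference of at least 2-fold was used as a fixed size, with no test. The 34 gene lists, with 819 symbols, could name 279 genes, of which 201 were measured. None of the genes listed for elastic fibres could be named, so the main protein of this ligament is not analysed here.

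Of 13717 measured features, the fused levels were higher by 2-fold or more in 1076 (7.84%) and lower by as much in 1251 (9.12%). These shares are the background for all counts of list members below. The control of L3/4 set against the control of L2/3 and L4/5, both labelled as control, gave 8.43% higher and 9.14% lower of 13137 features, so at 2-fold the fused array differed from its own control about as often as the control arrays differed from each other. From the control of L3/4 it differed more often, with 1498 of 13352 features higher (11.2%) and 1730 lower, or 24.2% in either direction. Higher by 16-fold or more were 122 features (0.889%) at the fused levels and 1 feature (0.00761%) in the control of L3/4, whereas lower by 16-fold or more were 39 (0.284%) and 29 (0.221%). With the control of L3/4 as the reference, 104 features (0.779%) were higher by 16-fold or more and 5 (0.0374%) lower by as much. Of the 958 measured genes with a symbol, 96 were higher and 111 lower by 2-fold or more. Beyond 2-fold by more than 2 scanner errors were 593 of the higher and 507 of the lower features. Over 12741 features measured on all 4 arrays, the fused levels stood at least 2-fold above the highest of the other arrays in 461 (3.62%) and below the lowest in 308 (2.42%). The same shares were 2.75% and 3.36% when the control of L3/4 was set against the others, 1.29% and 0.722% for the array that serves as control of the fused levels, and 0.440% and 0.400% with the ISC level.

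**Figure D1:**
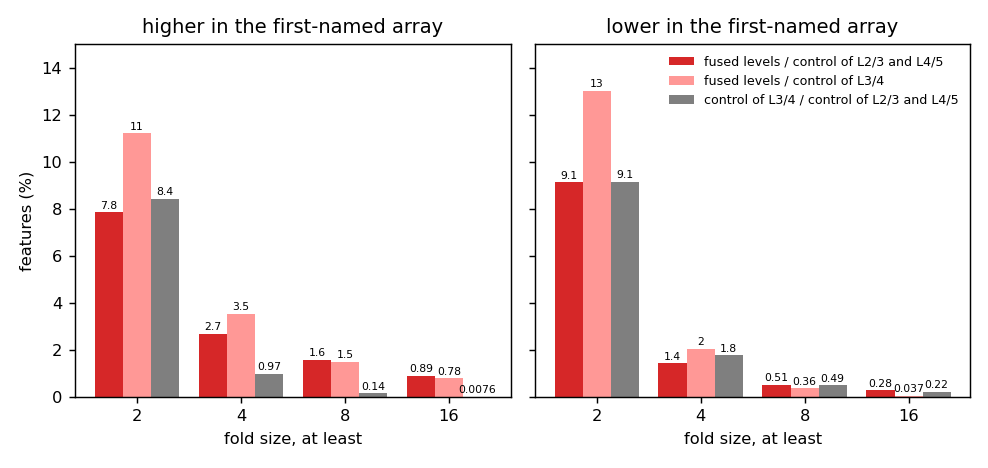
Share of measured features (percent, bars from 0) that were at least 2-, 4-, 8- or 16-fold higher (left) or lower (right) in the first-named array of each pair, for the fused levels against either control and for the control arrays against each other. At 2-fold 7.84% were higher at the fused levels than in their control, 11.2% than in the control of L3/4, and 8.43% between the controls, and at 16-fold these shares were 0.889%, 0.779% and 0.00761%.

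**Figure D2:**
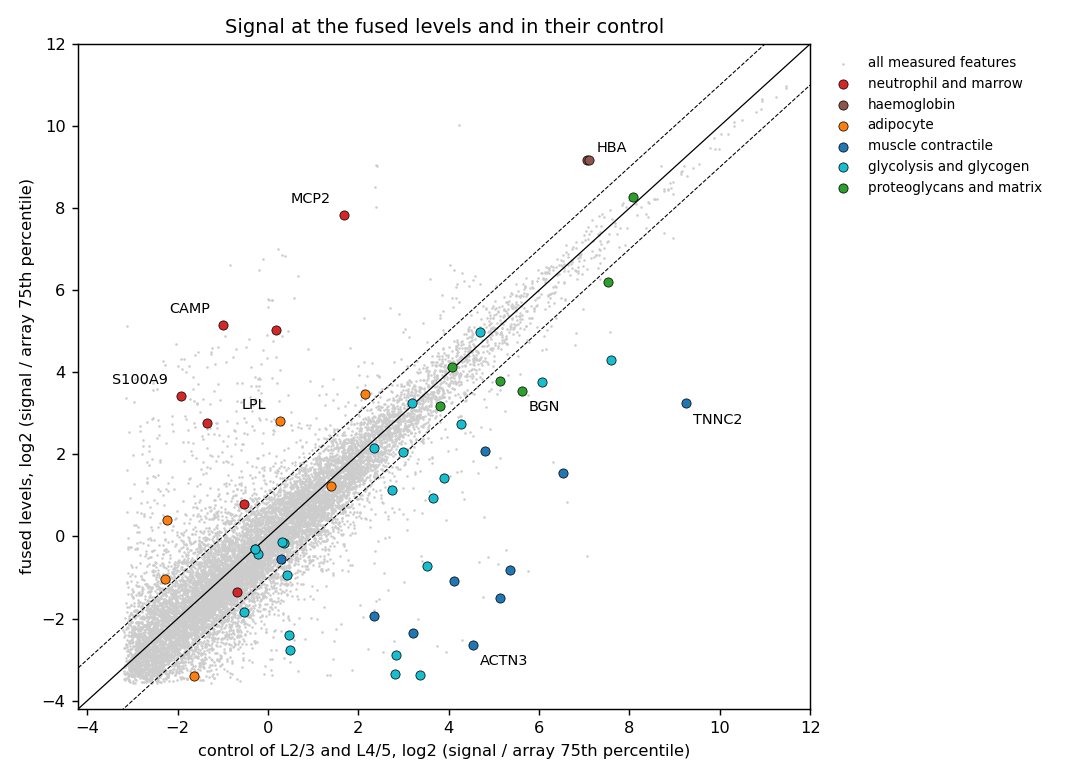
Log2 signal of each measured feature at the fused levels (vertical) and in the control of L2/3 and L4/5 (horizontal), each relative to the array's 75th percentile, with members of 6 gene lists in colour. The solid line marks equal signal and the dashed lines 2-fold, and the neutrophil genes other than CXCR1 lie above the band while the muscle contractile genes other than TPM2 lie below it.

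Neutrophil granule and marrow genes had, after 4 numbered loci, the highest ratios of all named genes. Of 9 listed genes that could be named 7 were measured. Of these, 6 were higher by 2-fold or more and 0 lower, beside 7.84% and 9.12% over all features. The median log2 ratio was 4.87 beside −0.13 over all features. MCP2, a defensin, an antimicrobial peptide of granules, had a signal of 228 at the fused levels, 3.22 in the control of the same levels, 7.94 in the control of L3/4 and 4.31 at the ISC level. CAMP, the precursor of the cathelicidin peptide, had 35.6 at the fused levels, 0.503 in its control, 1.51 in the control of L3/4 and 0.891 at the ISC level. S100A9, a subunit of the calcium-binding protein calprotectin, had 10.8, 0.264, 0.576 and 0.263 on the arrays in that order. For each of these genes the fused array lay far above the other 3 arrays, and the control of L3/4 was the next highest. The log2 ratios to the control of the same levels were 6.15 for MCP2, 6.14 for CAMP and 5.35 for S100A9, and all 5 CAMP probes lay between 6.13 and 6.33. Against the control of L3/4 they were 4.84, 4.56 and 4.22. SRGN, the core protein of the proteoglycan that packs granule contents, was at 32.9 and 1.13 at the fused levels and in their control. BPI, a protein of granules that kills Gram-negative bacteria, was at 6.76 and 0.390 on the same pair of arrays. CXCR2, the receptor that draws neutrophils towards CXC chemokines, differed less, with 1.73 against 0.693, 0.640 and 0.643 on the remaining arrays. CXCR1, the other such receptor, did not share this direction, at 0.392 against 0.618 (log2 ratio −0.66). FPR1, a receptor for bacterial formyl peptides, and MMP9, a gelatinase stored in granules, passed background at the fused levels and not in the control of the same levels. FPR1 was at least 3.57-fold higher, and MMP9, at 0.102, was too dim for a bound above 1.

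The 4 highest log2 ratios among named genes belonged to loci known here only by number, LOC100009134 at 6.79, LOC100009166 at 6.70, LOC100009135 at 6.66 and LOC100009136 at 6.63. Their signals at the fused levels were 129, 89.9, 533 and 522, against 1.17, 0.864, 5.26 and 5.29 in the control. LOC100009135 and LOC100009136 had nearly the same signal on every array (33.2 and 32.5 in the control of L3/4, 16.1 and 17.1 at the ISC level), and whether their probes read separate transcripts was not tested. The summed signal of the 9 named neutrophil and marrow genes was 316 at the fused levels, 6.88 in their control, 14.6 in the control of L3/4 and 8.58 at the ISC level. A block of features without gene names also held high ratios, and was singled out after their values were seen. They carry sequence accessions starting with AY or AF, and the files do not pair them with genes. Of 275 measured, 126 were higher by 2-fold or more and 4 lower, beside 7.84% and 9.12% over all features. The block made up 63 of the 122 features higher by 16-fold or more. Their median log2 ratio was 0.54, and 0.62 to the control of L3/4. Whether these probes read separate transcripts was not tested. In RNA of whole tissue, more cells of a type and more RNA per cell cannot be told apart.

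Other genes of white blood cells went the same way in part. Of 4 measured macrophage and monocyte genes 2 were higher by 2-fold or more and 0 lower, beside 7.84% and 9.12% over all features. CD14, a receptor for bacterial lipopolysaccharide, had 2.06 at the fused levels, 0.985 in the control, 0.703 in the control of L3/4 and 1.15 at the ISC level. NCF1, a cytosolic subunit of the oxidase that makes superoxide in phagocytes, was at −0.09 on the log2 scale, and CYBA, a membrane subunit, at 0.57. CYBB, the catalytic subunit of that oxidase, was above background on the fused array and on neither control, at least 4.12-fold higher. CCR1, a chemokine receptor, was at least 5.42-fold higher and was above background on neither control. AOAH, an enzyme of phagocytes that inactivates lipopolysaccharide, named after its value was seen, had a log2 ratio of 2.48, and 3.22 to the control of L3/4. PRKCB, a protein kinase C isoform abundant in blood cells, was among the 20 highest at 3.52, but its signal of 1.79 was close to the 1.31 of the control of L3/4.

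Haemoglobin genes exceeded the control of L2/3 and L4/5 and were under 2-fold from the control of L3/4. HBA, the alpha chain of haemoglobin, had a signal of 575 at the fused levels, 134 in their control, 402 in the control of L3/4 and 217 at the ISC level. HBB2, a beta chain, had 576, 138, 377 and 216 in that order. The log2 ratios were thus 2.10 and 2.06 to the control of the same levels and 0.52 and 0.61 to the control of L3/4. Further genes with a part in red cells were named after their values were seen. BPGM, the enzyme that makes the haemoglobin ligand 2,3-bisphosphoglycerate, was at 1.69, with 4 probes from 1.10 to 1.69, and at 1.05 to the control of L3/4. MPP1, a protein of the red cell membrane skeleton, was at 1.96, and at 1.63 to the control of L3/4. EIF2AK1, the haem-regulated kinase of red cell precursors, was at 1.84 to the control of the same levels and at −0.36 to the control of L3/4. Of 27 listed cell division symbols only 2 could be named and measured. Both were higher by 2-fold or more, beside 7.84% over all features. They were TACC3, a protein of the mitotic spindle, at 3.79 and CCNA2, cyclin A2, at 1.23. To the control of L3/4 these were 1.77 and 1.79. CKS2, a partner of cyclin-dependent kinases, at 1.72, and HMGB2, a chromatin protein abundant in dividing cells, at 2.03, were named after their values were seen.

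**Figure D3:**
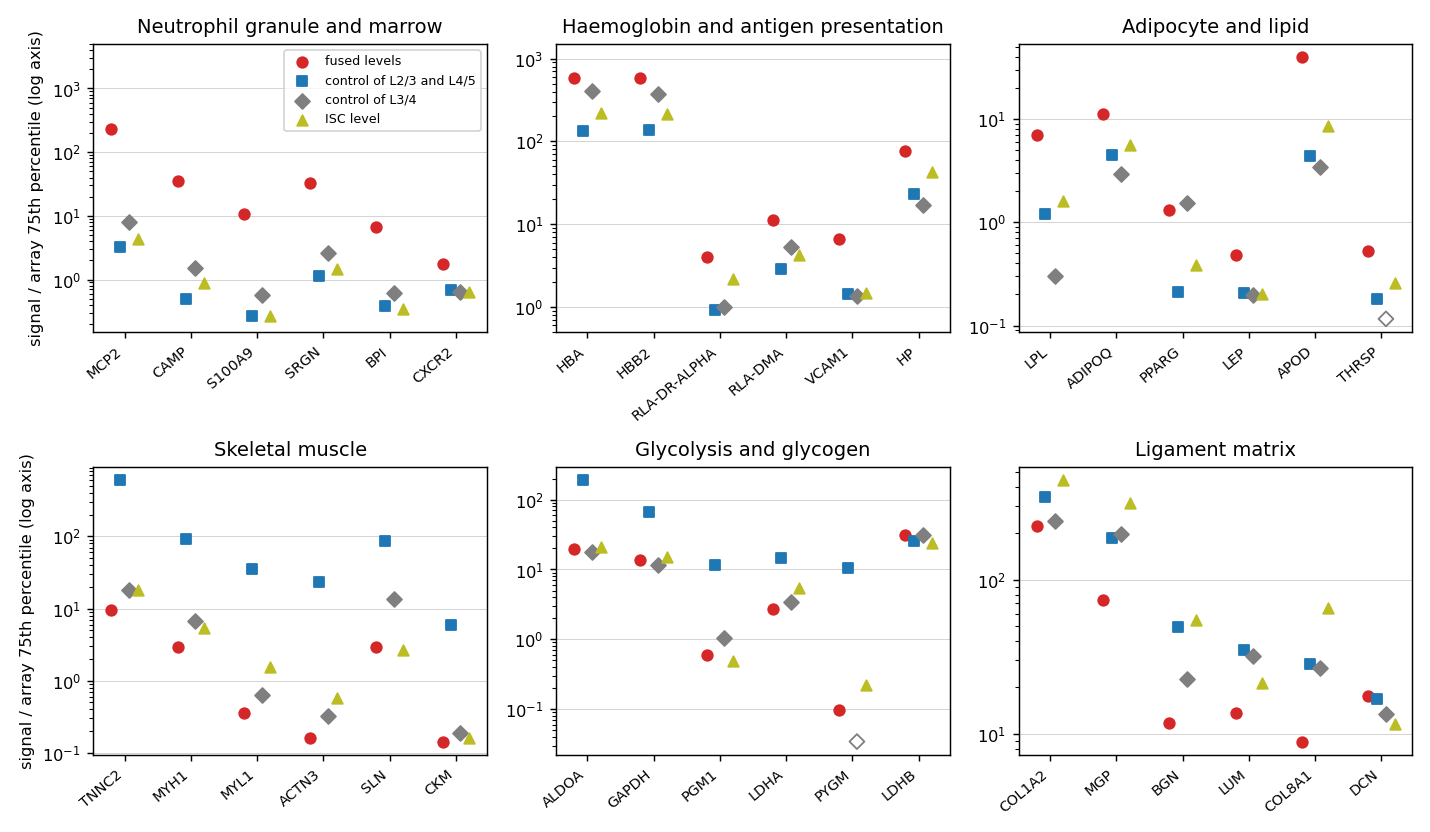
Signal relative to the array's 75th percentile (log axis) of 36 genes on the 4 arrays, in 6 panels, with open symbols where the gene was not well above background. The fused levels stand alone at the top for the neutrophil genes (MCP2 at 228 against 7.94 or less), and the control of L2/3 and L4/5 stands alone at the top for skeletal muscle (TNNC2 at 611 against 18 or less).

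The antigen presentation list had 1 measured member, RLA-DR-ALPHA. This, the alpha chain of the rabbit MHC class II molecule DR, had 3.99 at the fused levels, 0.929 in their control, 1.002 in the control of L3/4 and 2.21 at the ISC level. Its 2 probes gave log2 ratios of 2.10 and 2.31. RLA-DMA and RLA-DMB encode the chains of the molecule that loads peptides onto class II, and both were named after their values were seen. RLA-DMA was at 1.95 and RLA-DMB at 2.39 on the log2 scale, and only 1 of the 5 RLA-DMB probes was measured. CD1D, which presents lipids to T cells, was at 1.58. VCAM1, the adhesion molecule by which activated endothelium holds leukocytes, had 6.60 at the fused levels and between 1.37 and 1.47 on the other 3 arrays. All 5 VCAM1 probes were higher, by 1.71 to 2.21. Of the remaining endothelial genes SELE, E-selectin, another adhesion molecule for leukocytes, was at 0.55 and EDN1, endothelin, was at 0.11. NOS3, the endothelial nitric oxide synthase, was at 0.27, SOX17 at −0.04 and THBD, thrombomodulin, at 1.03. With VCAM1, 2 of 6 endothelial genes were higher by 2-fold or more and 0 lower, beside 7.84% and 9.12% over all features. KDR, the main receptor for vascular endothelial growth factor, was well above background on neither array.

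Apart from CD1D, the 5 measured members of the T cell list lay between −0.41 for CD28, a costimulatory receptor, and −0.08 for CD4. Of the 14 symbols of the B cell list only 2 could be named, and only IGLL1 was measured on both arrays, at 0.10. The list therefore says little about B cells. RAG2, which cuts antigen receptor genes in lymphocyte precursors, was above background in the control only and was at least 5.17-fold lower on the fused array. It was not well above background on the other arrays.

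Cytokine and chemokine genes went in both directions. Of 20 that could be named 11 were measured, with 3 higher by 2-fold or more, 1 lower and a median of −0.12, next to the −0.13 of all features. IL1RN, the antagonist of the interleukin-1 receptor, had 3.91 at the fused levels, 0.564 in their control, 0.996 in the control of L3/4 and 0.605 at the ISC level. IL1B, an interleukin-1 that this antagonist blocks, had 2.35 at the fused levels and was not above background in the control, hence at least 21.9-fold higher. It was the largest bound upward among named genes. IFNG, interferon gamma, had 4.85 against 0.905 in the control, 0.523 in the control of L3/4 and 0.808 at the ISC level, from 1 measured probe of 2. CXCL8, a chemokine for neutrophils, was at 1.05 with 5 measured probes from 0.79 to 1.79, and GRO-A, another such chemokine, named after its value was seen, at 1.52. IL15, a growth factor of lymphocytes, was the only measured member lower by 2-fold or more, at −1.46, with 1 of 7 probes measured. CCL2, a monocyte attractant, was just under 2-fold lower, with signals of 0.325 and 0.650. IL6, IL10 and TNF were well above background on neither array. Beside 7.84% higher and 9.12% lower over all features, 2 of 9 measured members of the prostaglandin list were higher by 2-fold or more and 0 lower. These were PTGS2, the inducible cyclooxygenase, at 2.45 and PTGER3, a receptor for prostaglandin E2, at 1.68. The 2 measured probes of PTGS2 disagreed, at 0.14 and 2.45. BDKRB1, the inducible bradykinin receptor, was well above background on the other arrays and not at the fused levels, at least 4.32-fold lower than in the control. HP, haptoglobin, which binds free haemoglobin, had 76.2 at the fused levels, 23.3 in the control, 17.04 in the control of L3/4 and 42.6 at the ISC level.

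Of 7 measured adipocyte genes 4 were higher by 2-fold or more and 1 was lower, with a median of 1.24, beside 7.84% higher and 9.12% lower over all features. With the normexp background correction the median was 0.34, under 2-fold. That setting adds an offset of 50 to each signal, which narrows the ratios of dim spots. LPL, the lipase that frees fatty acids from lipoproteins, had 7.003 at the fused levels, 1.20 in their control, 0.300 in the control of L3/4 and 1.61 at the ISC level. ADIPOQ, the fat cell hormone adiponectin, had 11.1, 4.44, 2.93 and 5.63 in that order. LEP, leptin, had 0.484 against 0.197 to 0.205 on the other arrays. For these genes the fused array was the highest of all. PPARG, the master regulator of fat cells, was different, with 1.32 at the fused levels, 0.213 in the control of the same levels and 1.54 in the control of L3/4. SLC2A4, the insulin-responsive glucose transporter of fat and muscle, was at −0.01, and RBP4, retinol-binding protein, at −0.17. APOE, apolipoprotein E, was the lower member at −1.74, and was not above background in the control of L3/4 or at the ISC level. UCP1, the uncoupling protein of brown fat, was above background at the fused levels only, and at least 1.24-fold higher. THRSP, a lipogenic nuclear protein, named after its value was seen, was at 1.53. Of 9 measured lipoprotein and cholesterol genes 2 were higher by 2-fold or more and 3 lower, beside 7.84% and 9.12% over all features. APOD, apolipoprotein D, a carrier of small lipids, had 39.96 against 4.38, 3.46 and 8.51 on the remaining arrays. VLDLR, a receptor for triglyceride-rich lipoproteins, was at −1.02 to the control of the same levels and at 2.45 to the control of L3/4, so its direction depended on the control.

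Skeletal muscle genes had the lowest ratios. Of 13 contractile genes that could be named 10 were measured, with a median of −5.38. Of these, 9 were lower by 2-fold or more and 0 higher, beside 9.12% and 7.84% over all features. TNNC2, the calcium sensor troponin C of fast fibres, had a signal of 9.46 at the fused levels, 611 in the control of the same levels, 18 in the control of L3/4 and 17.9 at the ISC level. MYH1, a fast myosin heavy chain, had 2.91, 92.7, 6.81 and 5.38 in that order, and its 4 probes gave log2 ratios from −5.25 to −4.99. ACTN3, the actinin of fast fibre Z-discs, had 0.160, 23.2, 0.323 and 0.569. The control of L2/3 and L4/5 stood far above the other 3 arrays for each of these genes, and the fused levels were the lowest of the 4. Against the control of L3/4 the list had a median of −0.87 over 9 measured members. TNNC2 was then at −0.93, MYH1 at −1.23, ACTN3 at −1.02 and MYL11, a regulatory light chain, at −0.01. TNNC1, the troponin C of slow fibres and heart, was above background in the control of the same levels only and was at least 8.69-fold lower on the fused array. ANKRD1, a stress-responsive protein of the sarcomere, was at least 42.9-fold lower. TPM2, a tropomyosin, was the measured member under 2-fold, at −0.82.

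The genes that couple excitation to contraction lay with the contractile genes. Of 17 that could be named 11 were measured, 7 lower by 2-fold or more and 0 higher, beside 9.12% and 7.84% over all features. The median was −2.19 (−0.45 to the control of L3/4), and 5 more were above background in the control only. ATP2A1, the calcium pump of fast fibres, had 0.104 at the fused levels, 3.601 in their control, 0.290 in the control of L3/4 and 0.166 at the ISC level. SLN, sarcolipin, which restrains that pump, had 2.97, 86.8, 13.4 and 2.67. CASQ1, the calcium store of fast fibres, was well above background on every array but the fused one, and was at least 86.7-fold lower there, the largest bound in either direction. RYR1, the calcium release channel of skeletal muscle, was at −4.95, and CACNB1, a subunit of the calcium channel that senses voltage, at −2.71 with 6 probes from −3.11 to −2.70. Isoforms of slow fibres and heart went apart. CASQ2, their calsequestrin, was at −1.97, and JPH2, the junctophilin of heart, was at least 2.86-fold lower. ATP2A2, the calcium pump of slow fibres, heart and many other cells, was at 0.44 and PLN, phospholamban, at 0.59. CKM, the muscle creatine kinase, was at −5.35 and CKMT2, its mitochondrial counterpart, at −4.42. Of the sarcoglycans, which anchor the muscle membrane, SGCA was at least 9.01-fold lower, and SGCB, named after its value was seen, was at −1.49. MSTN, myostatin, a restraint on muscle growth, was at −0.92, and MYOG, a regulator of muscle differentiation, was well above background on neither array.

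Enzymes of glycolysis and glycogen use were lower beside the muscle genes, with a median of −1.57. Of 22 measured members 14 were lower by at least 2-fold and 0 higher by as much, beside 9.12% and 7.84% over all features. PYGM, the glycogen phosphorylase of muscle, had 10.3 in the control of the same levels and 0.0967 at the fused levels, and was not above background in the control of L3/4. ENO3, the muscle enolase, was at −6.16, PPP1R3A, the subunit that brings a phosphatase to muscle glycogen, at −5.73 and PGM1, which links glycogen to glycolysis, at −4.25. ALDOA, an aldolase of muscle and other tissues, had 19.6 at the fused levels, 193 in their control, 17.8 in the control of L3/4 and 21.0 at the ISC level. GAPDH, often used as a reference gene, had 13.5, 67.1, 11.7 and 14.9 in that order. For ALDOA and GAPDH the fused levels thus lay between the arrays other than their own control. The phosphorylase kinase subunits PHKG1 and PHKA1 were at −3.25 and −2.88, and LDHA, the lactate dehydrogenase subunit of fast muscle, at −2.45. LDHB, the subunit of oxidative tissues, was at 0.28. Against the control of L3/4 the median of the list was −0.14 over 21 members, with ENO3 at −1.51 and the widespread glucose transporter gene SLC2A1 at −2.33. SLC2A1 had 0.279 at the fused levels and between 0.693 and 1.40 on the others. The summed signal of the 13 named contractile genes was 19.3 at the fused levels, 868 in their control, 35.3 in the control of L3/4 and 32.2 at the ISC level. The control of L3/4 set against the control of L2/3 and L4/5 had a median log2 ratio of −4.85 over 9 contractile genes. Over 21 glycolysis and glycogen genes it was −1.27. What sets the control arrays apart was not tested.

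**Figure D4:**
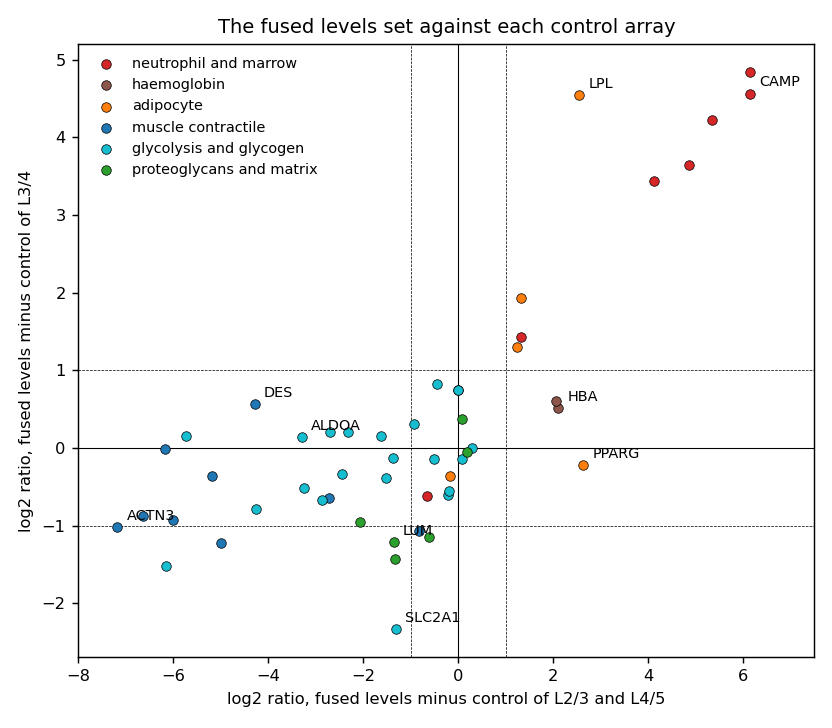
Log2 ratio of the fused levels to the control of L2/3 and L4/5 (horizontal) and to the control of L3/4 (vertical) for members of 6 lists that were well above background on the 3 arrays, with dashed lines at 2-fold. Both ratios share the fused array. Neutrophil genes other than CXCR1 are high on both axes (CAMP at 6.14 and 4.56), muscle and glycolysis genes are low mainly on the horizontal axis (ACTN3 at −7.18 and −1.02), and LUM is low on both (−1.36 and −1.22).

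On their brightest probes, collagen and proteoglycan genes were lower or under 2-fold apart at the fused levels. Of the 10 measured, 0 were higher by 2-fold or more, which is near the 7.84% over all features. Fibrous matrix genes had strong signal on both arrays, but they are not particular to ligament, and the labelled tissue could not be checked by elastic fibre genes. COL1A2, a chain of type I collagen, had 222 at the fused levels, 341 in their control, 239 in the control of L3/4 and 443 at the ISC level, a log2 ratio of −0.62 with 11 probes from −0.90 to −0.50. COL8A1, a chain of the short network-forming collagen VIII, had 8.93, 28.6, 26.6 and 65.5 in that order, at −1.68. COL2A1, the collagen of cartilage, was at −0.73 on its brightest probe, but its 5 measured probes ranged from −4.62 to −0.73. P4HB, a subunit of the enzyme that hydroxylates collagen, was at −1.18. Of the 4 measured collagens and collagen enzymes 2 were lower by 2-fold or more, beside 9.12% over all features, with a median of −0.96. For COL8A1 the fused levels were the lowest of the 4 arrays by a wide margin, and for COL1A2 they were close to the control of L3/4.

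Of 6 measured proteoglycans and matrix glycoproteins 3 were lower by 2-fold or more and 0 higher, beside 9.12% and 7.84% over all features. Their median was −0.98. BGN, biglycan, a small proteoglycan, had 11.7 at the fused levels, 49.3 in their control, 22.7 in the control of L3/4 and 54.6 at the ISC level, and its 2 probes were at −2.12 and −2.07. LUM, lumican, which regulates collagen fibril spacing, had 13.7 against 35.2, 31.9 and 21.5. MGP, matrix Gla protein, an inhibitor of calcification, had 73.7 against 185, 198 and 313, with 9 probes from −1.57 to −1.31. The fused levels were the lowest array for all 3 genes, and against the control of L3/4 they were at −0.95 for BGN, −1.22 for LUM and −1.43 for MGP. SPP1, osteopontin, a phosphoprotein of bone and of inflamed tissue, was at −0.63. DCN, decorin, was at 0.07 with 6 probes from −0.18 to 0.91. OGN, osteoglycin, was at 0.18 on its brightest probe, the lowest of 5 that reached up to 1.46. The small leucine-rich proteoglycans thus did not move as 1 group. PTH1R, the receptor of parathyroid hormone, had 0.199 against 0.966 in the control, 0.298 in the control of L3/4 and 0.271 at the ISC level. PTHLH, a ligand of that receptor, named after its value was seen, was at −1.59, and at −0.01 to the control of L3/4.

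Of 15 listed tendon and cartilage genes 4 could be named and 2 were measured, so these markers were covered only in part. TNMD and CNMD were low on all arrays and lowest at the fused levels. TNMD, tenomodulin, a membrane protein of tendon and ligament cells, had 0.270 in the control, 0.260 in the control of L3/4 and 0.244 at the ISC level, and was not above background on the fused array, at least 3.32-fold under the control. CNMD, chondromodulin, its relative in cartilage, had 0.123 against 0.247, 0.225 and 0.212. Its log2 ratio of −1.01 had a scanner error of 0.37. The lowest signal above background on the fused array was 0.0814. Other genes with the fused levels as the lowest array were named after their values were seen. MYOC, myocilin, a secreted glycoprotein, had 11.9 against 35.4, 30.6 and 32.9. EMP1, a membrane protein, had 46.7 against 126, 143 and 159. LGALS3, galectin-3, had 0.477 against 1.27, 1.45 and 1.27. STEAP1, a metalloreductase of the cell surface, had 4.40 against 17.9, 13.8 and 17.2. For each of these the fused levels lay at least 2-fold below every other array, and the other 3 lay close to each other.

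**Figure D5:**
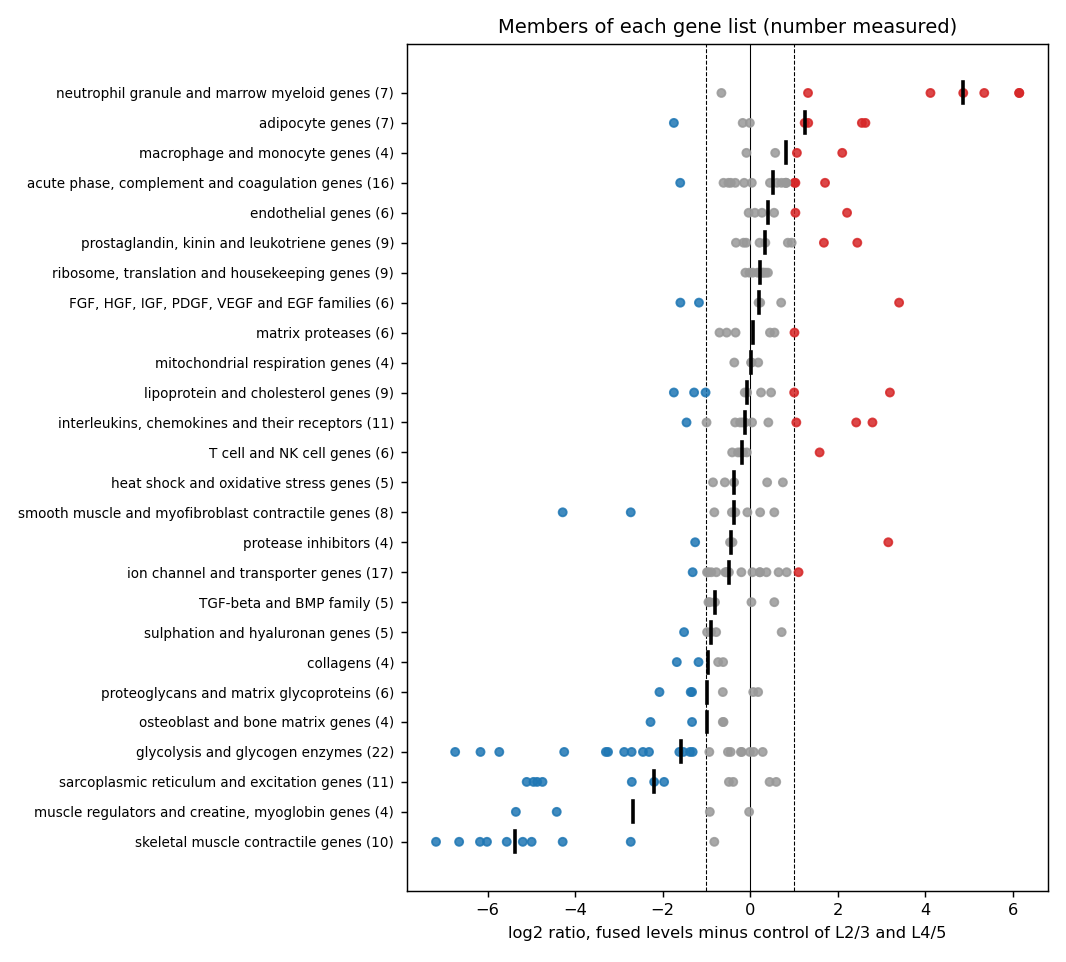
Log2 ratio of the fused levels to the control of L2/3 and L4/5 for the measured members of each list with at least 3 measured, sorted by the list's median (black bar), with dashed lines at 2-fold and the number of measured members in brackets. The neutrophil list lies at the top with a median of 4.87 and the muscle contractile list at the bottom with −5.38, while housekeeping genes lie around 0.22.

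Of 6 measured matrix proteases 1 was higher by 2-fold or more and 0 lower, with a median of 0.06, beside 7.84% and 9.12% over all features, and 3 more were above background on the fused array only. PLAU, urokinase, which activates plasminogen, was at 1.011, but its 3 probes ranged from −0.576 to 1.011. MMP2, a gelatinase, was at −0.70, MMP3, a stromelysin, at −0.34, MMP13, a collagenase, at 0.55 and CTSK, the collagen-cleaving cathepsin of osteoclasts and fibroblasts, at −0.54. ACP5, the acid phosphatase that marks osteoclasts, was well above background on neither array. CTSE, an aspartic protease of blood and epithelial cells, was above background on the fused array and on no other array, at least 6.16-fold higher. The inhibitors went apart. TIMP1 had 3.42 at the fused levels, 8.18 in their control, 4.06 in the control of L3/4 and 8.39 at the ISC level, a log2 ratio of −1.26. TIMP4 had 1.497 against 0.168 in the control and 0.475 at the ISC level, a log2 ratio of 3.15, and was not above background in the control of L3/4. TIMP3, which binds to the matrix, was at −0.41 and CST3, cystatin C, at −0.46. Of the hyaluronan and sulphation genes TNFAIP6, a hyaluronan-binding protein induced by inflammation, was at −1.51, the only 1 of 5 at least 2-fold apart, and its 7 probes ranged from −1.99 to 0.14.

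Among growth factors HGF stood out. HGF, a mitogen made by mesenchymal cells, had 2.22 at the fused levels, 0.210 in their control, 0.578 in the control of L3/4 and 1.70 at the ISC level, so the ISC level was also above both controls. FGFR2, a receptor for fibroblast growth factors, was at −1.59 to the control of the same levels and at 1.02 to the control of L3/4. FGF1 was at −1.17 and not above background in the control of L3/4. FGF2 was at 0.23, FGF7 at 0.19 and PDGFD, a platelet-derived growth factor, at 0.71. Thus 1 of 6 members was higher by 2-fold or more and 2 lower, beside 7.84% and 9.12% over all features. Of 5 measured genes of the TGF-beta and BMP family 0 were at least 2-fold apart, with TGFB2 at −0.95, BMP2 at −0.80 and BMP4 at 0.55. Smooth muscle genes other than those shared with skeletal muscle were under 2-fold from the control of the same levels. ACTA2, smooth muscle actin, was at 0.23, MYH11, smooth muscle myosin, at −0.07 and CALD1, caldesmon, at 0.55. To the control of L3/4 MYH11 was at −1.34, ACTA2 at −0.40 and CALD1 at −0.42. Against it 2 of 8 list members, MYH11 and TPM2 (−1.07), were lower by 2-fold or more and 0 higher. That is near the 24.2% of all features at least 2-fold from that control in either direction. DES and TPM1, which striated muscle shares, were at −4.28 and −2.73 to the control of the same levels. S100B, a calcium-binding protein of Schwann cells, was at 1.53, and at 0.30 to the control of L3/4.

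The housekeeping list, without GAPDH (−2.31, counted with the glycolysis genes), differed little. So few genes do not measure the spread between single arrays. All 9 measured members were under 2-fold, from −0.11 for PPIA, cyclophilin A, to 0.41 for RPS7, a ribosomal protein, with a median of 0.22. ACTB, cytoplasmic actin, was at 0.30, with 3 probes from −1.27 to 0.42. The 4 measured genes of mitochondrial respiration were also under 2-fold, from −0.36 for SLC25A4, the mitochondrial ADP/ATP carrier, to 0.18 for SDHD, a subunit of succinate dehydrogenase, with a median of 0.03. Over all features the median was −0.13, with quartiles of −0.51 and 0.32. Control of L3/4 against control of L2/3 and L4/5 gave 8.43% of features higher and 9.14% lower by 2-fold or more. The fused levels against their control gave 7.84% and 9.12%. In 4 bins of equal size by mean signal, from dim to bright, 16.9%, 20.8%, 17.7% and 12.5% of features were apart by 2-fold or more.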

How the data were processed

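Total RNA was labelled with Cy3 and hybridised to 1-colour Agilent rabbit arrays, 1 per group, all 4 on 1 slide. The submitters' processing notes name Agilent Feature Extraction 12.0.3. Per the file headers, the deposited values are linear spot intensities after background subtraction and spatial detrending, and arrays were not scaled to each other. The marks for spots well above background, saturated or non-uniform are 0 or 1, per the file headers. The authors' deposited value table holds intensities equal to the processed signal times 1 factor per array (24.7 for the fused levels, 29.3 for their control), with medians of 498 and 504, 442 for the control of L3/4 and 516 for the ISC level. Why these factors were chosen is unknown.

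Here, control spots and the 3 to 7 spots per array marked as outliers were left out, no spot was saturated, log2 was taken, spots of 1 probe were averaged, and each array's 75th percentile was subtracted (a signal of 85.4 for the fused levels, 72.8 for their control). The median SD over replicate spots of 50 probes was 0.12 on both arrays. Through RefSeq accessions without versions, and a gene table for mOryCun1.1 that gave symbols only, 3792 of 43603 probes (8.70%) got a name. A gene was represented by its brightest probe over the 4 arrays. Where a gene had no probe well above background on 1 array, its bound sets the signal on the other array against the higher of its own and the lowest signal well above background there. Named genes are the 20 highest and 20 lowest, list members, the 10 largest bounds a side and 16 fixed genes, except where said; some genes are not reported here. The genes, lists and alternatives were chosen with earlier results of these data known. The calculation was tested on simulated data. Python 3.11.15 and limma 3.58.1 were used.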

Additional observations from a re-analysis of the deposited data

How the results depend on the processing

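With 1 array a side, no replicate could be left out, and no paired analysis was possible because each group has 1 array. The counts of features at least 2-fold higher and lower, 1076 and 1251, became 438 and 267 with normexp on median spot signals, 2113 and 1917 where 1 array above background was enough, and 2491 and 2676 with no filter on dim probes. At 1.5-fold they were 2129 and 2927, and at 4-fold 367 and 196. Higher calls made up 46.2% of all 2-fold calls, or 62.1% under normexp. The neutrophil median of 4.87 was 3.48 with normexp, 4.12 with either looser filter, 3.64 against the control of L3/4 and 4.25 against the mean of the controls. The adipocyte median of 1.24 was 0.34 with normexp. The contractile median of −5.38 was −4.204 with normexp, −0.87 against the control of L3/4 and −3.09 against the mean of the controls. The sarcoplasmic reticulum median of −2.19 was −1.30 with normexp, −2.85 where 1 array was enough, −1.27 with probes averaged, −0.45 against the control of L3/4 and −1.31 against the mean of the controls. The glycolysis median of −1.57 was −0.14 and −0.96 against these references. The proteoglycan median of −0.98 lay past 2-fold at −1.06 with quantile normalization, −1.003 with probes averaged, −1.05 against the control of L3/4 and −1.09 against the mean of the controls, but was −0.805 with normexp and −0.626 with no filter. The normexp setting adds an offset of 50 to each signal, and an added constant narrows the ratios of dim spots. In the main setting the median signals were 20.2 at the fused levels and 17.2 in their control. The causes were not tested.

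Of 132 genes of the named set at least 2-fold apart, 0 changed sign with the same reference array and 12 did so with another. Against the control of L3/4 these were PPARG at −0.22, PPP1R3A at 0.15, DES at 0.57, ALDOA at 0.14, GAPDH at 0.21, VLDLR at 2.45, TPI1 at 0.15 (a glycolytic isomerase), FGFR2 at 1.02, SLC4A4 at −0.54 (a bicarbonate transporter), EIF2AK1 at −0.36, LY96 at −0.47 (a partner of a lipopolysaccharide receptor) and MARCKSL1 at −0.46. Against the mean of the controls VLDLR was at 0.71.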

Other observations

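Of 28 named genes of ion channels and transporters 17 were measured, and 1 was at least 2-fold higher, SLC4A4, a bicarbonate transporter, at 1.10, and 1 lower, the glucose transporter gene SLC2A1 at −1.31, with a median of −0.49. Over all features 7.84% were higher and 9.12% lower by as much. The calcium-activated potassium channel gene KCNMA1 was at −0.96 and ATP1B1, a subunit of the sodium pump, at −0.99. KCNA3, a potassium channel known from lymphocytes, named by its bound, passed background on the fused array and on neither control, at least 7.92-fold higher. Of 5 measured genes of the heat shock and oxidative stress list 0 were at least 2-fold apart, from HIF1A, the hypoxia-responsive transcription factor, at −0.85 to GCLC, an enzyme of glutathione synthesis, at 0.75. CRYAB, a small heat shock protein, was at −1.04 and JUN, an immediate-early transcription factor, at −1.01, both named after their values were seen.

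Of 16 measured genes of the acute phase, complement and coagulation 3 were at least 2-fold higher and 1 lower, with a median of 0.53. Over all features the shares were 7.84% and 9.12%. F8, coagulation factor VIII, was the lower one at −1.60, and at −0.04 to the control of L3/4. SAA3, an acute-phase serum amyloid A, had 2.07 at the fused levels, 2.81 in their control and 2.87 at the ISC level, but 0.245 in the control of L3/4, the array that stood apart here. TFPI, the inhibitor of tissue factor, was at 0.82 with 4 probes from 0.44 to 0.86.

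Most of the 16-fold differences lie in features with no name here. Of the 122 features at least 16-fold higher 9 were named genes, and of the 39 at least 16-fold lower 18. The unnamed feature with the largest ratio, A_04_P013072, had a signal of 35.2 at the fused levels, 0.115 in their control, 0.835 in the control of L3/4 and 0.522 at the ISC level. The transcript ENSOCUT00000014570 had 97.8 at the fused levels and 0.559 in their control. At the other end DN887922 had 0.718 at the fused levels, 134 in their control and 4.24 in the control of L3/4, and GU944668 had 0.173, 19.5 and 1.25.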
